A study of Mus musculus with 24 samples.

Results

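The comparison described here is a difference of differences. Embryoid bodies, clumps of mouse embryonic stem cells that differentiate in culture, were sorted into cells with Flk1 on their surface (Flk1+, labelled Flk+) and cells without it (Flk1-, labelled Flk-). For each gene the Flk1+ minus Flk1- difference, called the sort difference below, was taken at 95 h (labelled 95hr) and at 8 d of differentiation. The change of the sort difference is its value at 8 d minus its value at 95 h, so a positive change means that expression shifted towards the Flk1+ cells and a negative change that it shifted towards the Flk1- cells. The contrast uses 16 of the 24 arrays of the series, 4 in each of 4 groups: Flk1+ at 95 h, Flk1- at 95 h, Flk1+ at 8 d and Flk1- at 8 d. The other 8 arrays, of both sorts at 84 h, are not part of it. All 17440 measured features entered, 8973 genes and 8467 probes with no gene named here, and none was picked by its values.

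Flk1 is the VEGF receptor encoded by Kdr. It marks early mesoderm that can give rise to blood, endothelium, smooth muscle and heart, and it later stays on endothelial cells while most other mesoderm loses it. A gene can therefore be typical of Flk1+ cells at an early time and not at a late one, and the contrast asks which genes changed sides or came and went in this way. Wnt signalling and the path from stem cell to endothelium are named in the study's title. No genetic change or added agent is named in the labels, and the stem cell line and the culture medium are not given in the sources used here.

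Each array carried sorted-cell RNA in Cy5 and a common reference, RNA of homogenised mouse pups, in Cy3. Levels below are log ratios read as sample over reference, the likely direction given the dyes and the higher Kdr ratio of Flk1+ cells, and handled as log2, with each array's median set to 0, and they are comparable between arrays for a gene but not between genes. Arrays of a group resembled each other less at 95 h, with correlations over all features from 0.669 to 0.898, than at 8 d, with 0.925 to 0.958. Each group's arrays are numbered 1 to 4, and whether the numbers stand for separate cultures is not in the labels, so the p-values rest on a spread between samples that may be technical only. In sorted bulk RNA, fewer cells of a type and less RNA per cell cannot be told apart.

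The sort difference changed in 161 of 17440 features, 0.923% of those tested (limma, Benjamini-Hochberg adjusted p under 0.05). Of these 90 shifted towards Flk1+ cells (0.516% of the features tested) and 71 towards Flk1- cells (0.407%). They comprised 121 genes and 40 unnamed probes, and the size of the change ran from 0.58 to 2.58 on the log2 scale with a median of 1.00. When arrays of the same number were paired within each time by a block, 440 features were called, 277 towards Flk1+ and 163 towards Flk1-, and 147 of the 161 were among them. With quantile normalization the split was 65 towards Flk1+ and 78 towards Flk1-. With no adjustment 1892 features (10.8%) had a p under 0.05, and 72 of the 161 (0.413% of the features tested) kept their call whichever 1 of the 16 arrays was left out. When all 24 arrays entered the fit, 84 of the 161 kept the call.

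Most of these changes were losses of a difference seen at 95 h. In 118 features the sort difference was called at 95 h and not at 8 d. Of these 68 had been higher in Flk1- cells and 50 higher in Flk1+ cells. In 22 features it was called only at 8 d, 13 of them higher in Flk1+ and 9 higher in Flk1- cells. In 2 genes, Adgrg1 and Dkk1, it was called at both times with opposite signs. In Kdr and 1 unnamed probe it was called at both times with 1 sign and was smaller at 8 d. In the remaining 17 the change was called but neither sort difference was. Over all features, sort differences were called in 2.9% at 95 h and 0.614% at 8 d.

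The word lost is used here for a difference that no longer passed the test, and the estimate at 8 d is given beside it. The 68 and the 50 features below were picked by a call at 95 h and no call at 8 d. Separation at 95 h and a smaller difference at 8 d are therefore largely set by that choice. The shares of all features are given for scale and do not test the loss. Flk1+ and Flk1- arrays were fully apart at 95 h in 67 of the 68 and in all 50, beside 4.81% of all features. At 8 d the arrays were fully apart in 17 and 11, beside 15.9% of all. Among the 68 features that lost a Flk1- excess, the median size of the sort difference went from 0.90 at 95 h to 0.16 at 8 d, and 63 were under 0.5 at 8 d. Among the 50 that lost a Flk1+ excess it went from 0.99 to 0.17, with 46 under 0.5. The spread between arrays was wider at 95 h than at 8 d and the fit pools it. When each time was fitted from its own 8 arrays, sort differences were called in 0.774% of features at 95 h and 5.46% at 8 d, and 71 of the 118 were still called at 95 h and not at 8 d. Of the others, 34 were called at neither time, 6 at both times with a smaller difference at 8 d, 4 only at 8 d and 3 at both times with opposite signs. All 22 features called only at 8 d were called only at 8 d in that fit too. Of the 17 with neither sort difference called, 15 were called only at 8 d in it.

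**Figure D1:**
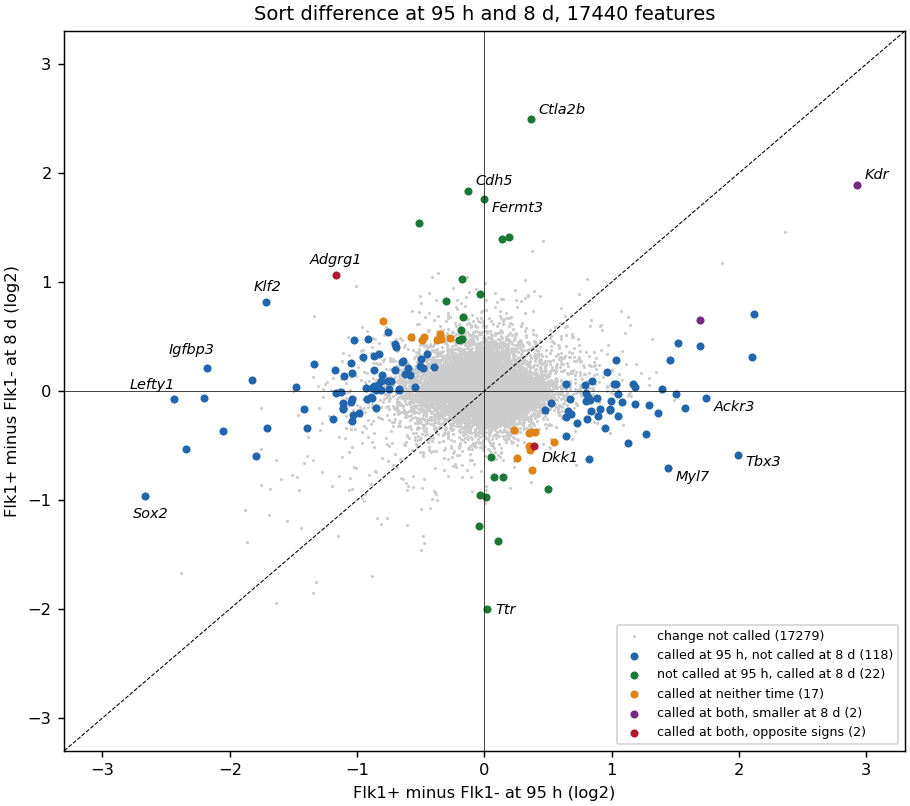
Sort difference (Flk1+ minus Flk1-, log2) at 95 h on the x axis and at 8 d on the y axis for 17440 features, with the 161 whose difference changed coloured by the times at which it was called and the dashed line marking no change. The 118 blue points lie along the x axis (called at 95 h, not at 8 d), the 22 green points along the y axis, and Kdr lies far to the upper right, below the dashed line.

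A changed sort difference can come from either population. From 95 h to 8 d the level of the gene itself changed in Flk1+ cells alone for 45 of the 161 features. It changed in Flk1- cells alone for 51 and in both for 65. Of all features, 29.9% changed with time in Flk1+ and 24.8% in Flk1- cells. The change of the sort difference equals the Flk1+ change minus the Flk1- change. Picking by it therefore favours features whose level changed with time in either sort. The percentages of all features are given for scale and do not test the counts. The larger of the 2 changes was in Flk1+ cells for 78 features and in Flk1- cells for 83. In 87 the estimates ran in opposite directions. Picking features by a large difference between the changes of the sorts favours opposite directions. The shares of all features for the larger change and for opposite directions were not taken. The counts are therefore not read as a trait of these genes. Sox2, Lefty1 and Rpl39l fell in Flk1- cells while their Flk1+ level moved by 0.06, -0.14 and -0.29. Tbx3, Igfbp3 and Adgrg1 moved in Flk1+ cells, by -2.67, 2.37 and 2.62, while their Flk1- level moved by -0.08, -0.02 and 0.38.

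**Figure D2:**
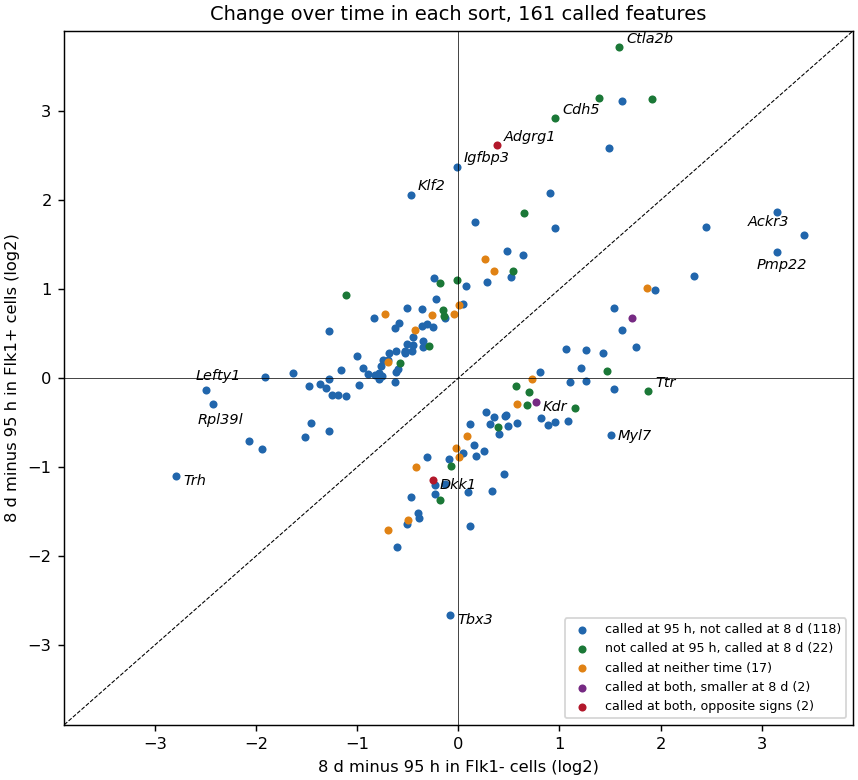
Change of level from 95 h to 8 d (log2) in Flk1- cells on the x axis and in Flk1+ cells on the y axis for the 161 features whose sort difference changed, coloured as in the plot of both sort differences; the dashed line marks an equal change in both. Tbx3 fell by 2.67 in Flk1+ cells alone, Ttr rose by 1.88 in Flk1- cells alone, and Ctla2b, Ackr3 and Pmp22 rose in both by unequal amounts.

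Kdr, the gene of the sorted receptor, was higher in Flk1+ cells at both times, and by less at 8 d. At 95 h its log2 ratio was 1.88, 1.73, 1.79 and 1.98 on Flk1+ arrays 1 to 4 and -1.30, -1.00, -1.02 and -1.00 on Flk1- arrays 1 to 4. At 8 d it was 1.46, 1.51, 1.46 and 1.89 in Flk1+ and -0.34, -0.35, -0.29 and -0.28 in Flk1- cells. The sorts did not overlap at either time, and every Flk1- array of 8 d was above every Flk1- array of 95 h. The sort difference went from 2.93 to 1.89, a change of -1.03 (SE 0.15, adjusted p = 0.00243, limma). Kdr rose by 0.77 in Flk1- cells (adjusted p = 7.2e-05) and moved by -0.27 in Flk1+ cells (adjusted p = 0.0687). The change was not called when all 24 arrays entered the fit (adjusted p = 0.273).

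Of the 13 features with a Flk1+ excess called only at 8 d, 8 were genes and 5 unnamed probes, with 3 genes in the endothelial list and 1 in the leukocyte and platelet list. Cdh5 encodes VE-cadherin, the adhesion protein of endothelial cell junctions. Its 4 arrays read -3.23, -3.19, -2.96 and -3.02 in Flk1+ and -2.68, -3.17, -3.26 and -2.77 in Flk1- cells at 95 h. At 8 d they read -0.71, 0.12, 0.07 and -0.21 in Flk1+ and -2.11, -2.01, -1.98 and -1.97 in Flk1- cells. The sorts overlapped at 95 h and were fully apart at 8 d. The change was 1.97 (SE 0.24, adjusted p = 0.000659), from a sort difference of -0.13 to 1.84, as Cdh5 rose by 2.92 in Flk1+ and by 0.95 in Flk1- cells.

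Fermt3, the integrin-activating kindlin of blood cells, read -1.78, -1.59, -1.17 and -1.50 in Flk1+ and -1.40, -1.71, -1.28 and -1.64 in Flk1- cells at 95 h. At 8 d it read 1.96, 2.28, 1.14 and 1.18 in Flk1+ and -0.04, 0.06, -0.28 and -0.22 in Flk1- cells. Its sort difference was 0.00 at 95 h and 1.76 at 8 d (SE of the change 0.31, adjusted p = 0.012). Ctla2b, a cysteine protease inhibitor gene with near relatives in the same family that a probe may also read, had the largest sort difference of the class, 2.49 at 8 d after 0.36 at 95 h (change 2.13, SE 0.39, adjusted p = 0.0164). Its Flk1+ arrays rose from between -2.18 and -1.49 to between 1.26 and 2.86, and its Flk1- arrays from between -2.53 and -1.71 to between -0.73 and -0.38. Flk1+ array 2 was the highest of its group at 8 d for both genes. The calls of Fermt3 and Ctla2b ended with array weights (adjusted p = 0.0931 and 0.0952).

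Eng, encoding the TGF-beta coreceptor endoglin, Cd34, a surface sialomucin of endothelial and blood progenitor cells, Plek, a platelet and leukocyte signalling protein, and Mfng, a Notch-modifying fringe enzyme, followed. Eng read -1.64, -1.32, -1.70 and -1.99 in Flk1+ and -2.02, -1.52, -1.86 and -1.80 in Flk1- cells at 95 h, and -0.96, 0.05, -0.92 and -0.52 against -1.92, -1.77, -2.08 and -2.15 at 8 d. Its sort difference went from 0.14 to 1.39 (change 1.25, SE 0.28, adjusted p = 0.0456). The change was 0.92 for Cd34 (adjusted p = 0.0212), 1.22 for Plek (adjusted p = 0.0456) and 1.12 for Mfng (adjusted p = 0.025). In all 4 genes the arrays of the sorts overlapped at 95 h and were fully apart at 8 d. Plek rose in both sorts, by 3.14 in Flk1+ and 1.92 in Flk1- cells, whereas Eng, Cd34 and Mfng rose in Flk1+ cells alone.

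These 4 calls were less firm than those of Cdh5 and Fermt3. Eng kept its call only without Flk1+ array 1 or 3 of 8 d, Flk1+ array 2 of 95 h or Flk1- array 1 of 95 h, and Plek only without Flk1+ array 3 of 8 d, Flk1+ array 3 of 95 h or Flk1- array 1 or 4 of 95 h. Without the other arrays the adjusted p reached 0.119 and 0.108. Cd34 lost it without Flk1+ array 2 or 4 or Flk1- array 3 or 4 of 8 d, and Mfng without Flk1+ array 4 of either time or Flk1- array 3 or 4 of 8 d, with adjusted p up to 0.0582 and 0.0647. With all 24 arrays Eng and Plek were not called (adjusted p = 0.0814 and 0.269), nor were Eng, Cd34 and Plek with quantile normalization (adjusted p = 0.132, 0.111 and 0.0755) or Eng, Cd34, Plek and Mfng with array weights (adjusted p = 0.151, 0.0562, 0.211 and 0.108).

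Of 22 measured genes of the endothelial list, 3 shifted towards Flk1+ cells (Cdh5, Eng and Cd34) and 2 towards Flk1- cells (Kdr and Nrp1), 22.7% in all. Kdr is the gene of the sorted receptor, so its sort difference is in part set by the sort. It counts in this share and in the list's median and mean levels below, and values without it were not taken. Over all features the share was 0.923%, from 121 of 8973 genes and 40 of 8467 unnamed probes. The lists hold genes only, and they were chosen with earlier results of these data known, so their shares describe and do not test. The share to set beside the percentages of the lists that follow is therefore 121 of 8973, which is above 0.923%. In a list with 1 call, the percentage rests on that gene alone and is not read as a result about the list. Beside counts of list members at an unadjusted p under 0.05 stands the share of all features, 10.8%. The list's median change was 0.27, beside 0.02 over all features, as its median sort difference went from 0.00 at 95 h to 0.24 at 8 d. Estimates were positive for 15 of the 22 members and negative for 7. Members on the positive side that missed the threshold included Emcn at 0.83 (adjusted p = 0.124), Ramp2 at 0.82 (adjusted p = 0.079), Flt1 at 0.74 (adjusted p = 0.161) and Pecam1 at 0.39 (adjusted p = 0.302). Of these, Ramp2 was called under the replicate block within time (adjusted p = 0.0146). Calcrl was the other member that the block added. The mean level over the list was highest in Flk1+ cells at 8 d, with arrays from -0.22 to -0.07, against -0.60 to -0.54 in Flk1- cells at 8 d and -0.82 to -0.58 over both sorts at 95 h. In the leukocyte and platelet list the mean level moved as well, but the median change was 0.06 (-0.02 to 0.114 over the alternatives). Its mean level was -0.84 in both sorts at 95 h, -0.24 in Flk1+ and -0.49 in Flk1- cells at 8 d, and 1 of its 13 measured members, Plek, was called (7.69%). Its part in the endothelial result was not tested. Of 7 early hematopoietic regulators and 11 erythroid genes, limma called 0, with 1 and 1 at an unadjusted p under 0.05, and 0 with the replicate block within time as well. Kit, a receptor of blood progenitors, had the largest change of the former, 1.24 (adjusted p = 0.0636), from -1.46 to -0.22.

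**Figure D3:**
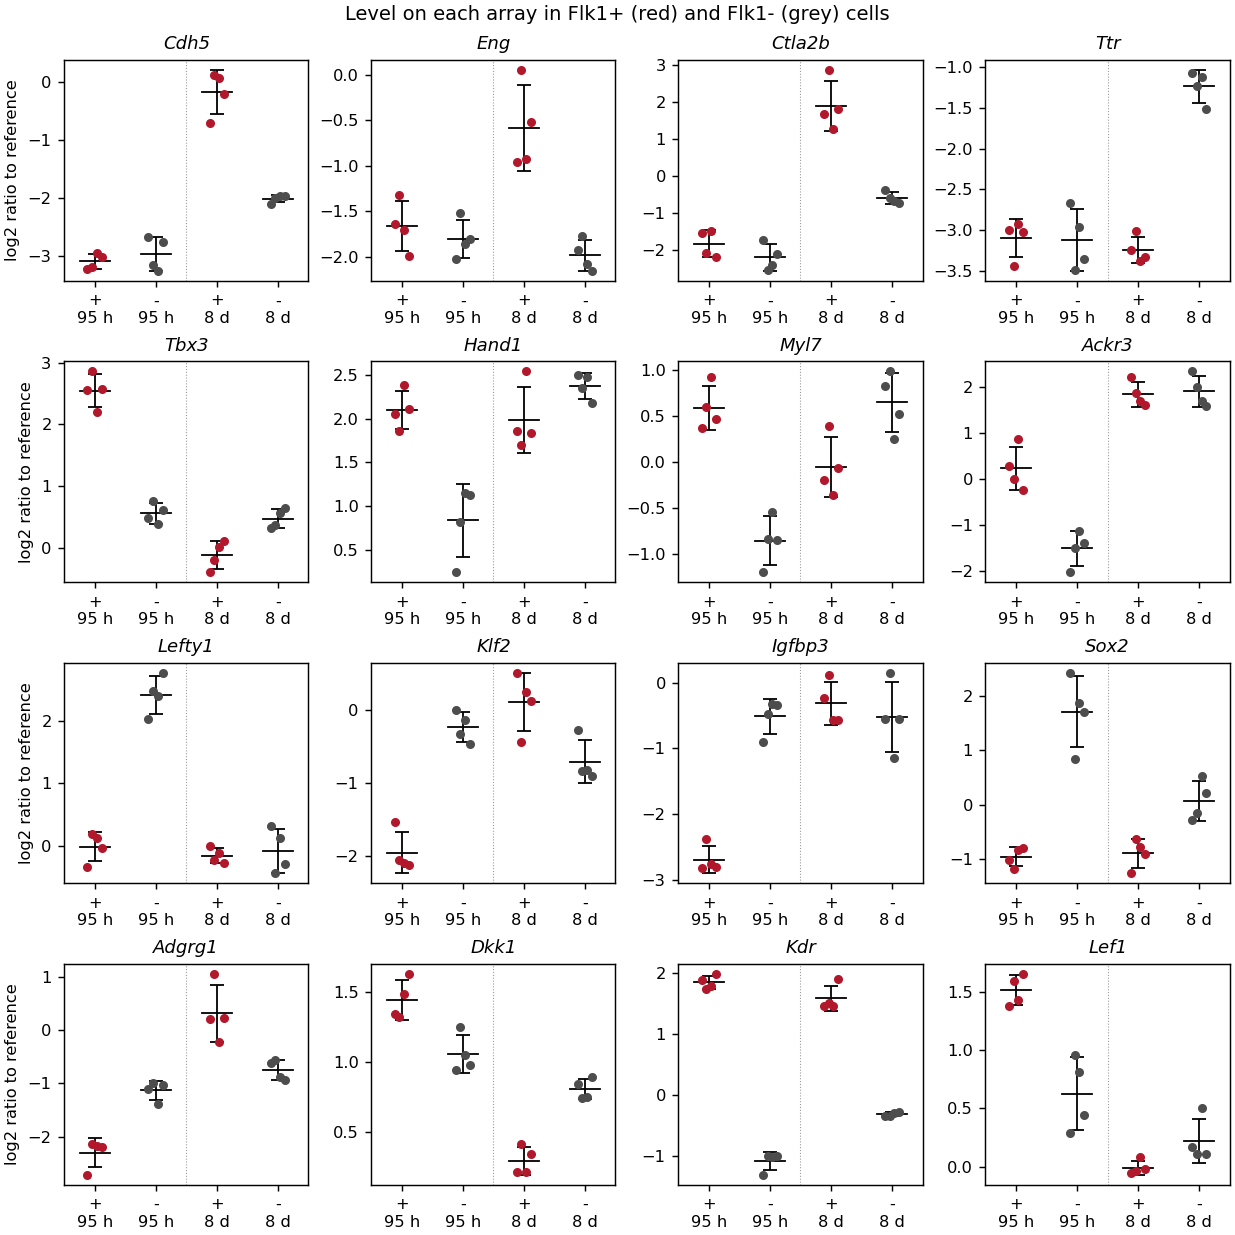
Log2 ratio to the reference (y axis, own scale per gene) on each of 16 arrays for 16 genes, with Flk1+ arrays in red and Flk1- arrays in grey at 95 h and 8 d; horizontal lines and bars are means and SDs of 4 arrays. Cdh5 and Ctla2b part only at 8 d, and Ackr3 is apart at 95 h and overlaps at 8 d. The red and grey points of Tbx3, Adgrg1 and Dkk1 change places, those of Tbx3 with a smaller gap at 8 d.

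A Flk1- excess called only at 8 d had Ttr at its head. Ttr encodes transthyretin, a carrier of thyroid hormone and retinol made by visceral endoderm and liver. It read -2.99, -3.44, -2.92 and -3.02 in Flk1+ and -2.66, -3.49, -2.96 and -3.35 in Flk1- cells at 95 h. At 8 d it read -3.24, -3.01, -3.38 and -3.33 in Flk1+ and -1.07, -1.24, -1.13 and -1.52 in Flk1- cells. Ttr thus rose in Flk1- cells alone, by 1.88, and the change of its sort difference was -2.02 (SE 0.24, adjusted p = 0.000637). Ttr was the only member called of 20 measured in the visceral and definitive endoderm list (5%), whose median change was 0.01. With the replicate block within time 4 were called, as Amot, Cldn6 and Sox17 joined it. The list's mean level was higher in Flk1- cells at both times, -0.20 against -0.63 at 95 h and -0.01 against -0.53 at 8 d. The endoderm factor Foxa2 had sort differences of -2.38 and -1.67 (change 0.71, adjusted p = 0.308) and the endocytic receptor Cubn had -1.15 and -1.33 (change -0.18, adjusted p = 0.959).

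Myl4, an atrial and fetal myosin light chain, read -2.70, -2.82, -2.75 and -2.88 in Flk1+ and -3.37, -3.38, -3.15 and -3.24 in Flk1- cells at 95 h, then -2.94, -2.23, -2.89 and -2.77 against -1.72, -1.30, -2.17 and -2.05 at 8 d. Its arrays were apart at both times in opposite directions, but only the difference of -0.90 at 8 d was called and not the 0.50 at 95 h (change -1.39, SE 0.25, adjusted p = 0.0127). Emb, encoding the adhesion glycoprotein embigin, and Phgdh, the first enzyme of serine synthesis, differed in another way: their Flk1- level stayed near its 95 h value, with changes of -0.18 and -0.07, while the Flk1+ level fell by 1.38 and 0.99. Emb read between 1.96 and 2.50 on all 8 arrays of 95 h and on Flk1- arrays of 8 d between 1.94 and 2.20, against 0.69 to 1.00 on Flk1+ arrays of 8 d (change -1.20, SE 0.16, adjusted p = 0.0015). Phgdh read between 1.02 and 1.28 at 95 h and between 0.92 and 1.29 in Flk1- cells at 8 d, against -0.10 to 0.40 in Flk1+ cells at 8 d (change -0.92, SE 0.17, adjusted p = 0.0171). Emb was not called with all 24 arrays (adjusted p = 0.638), nor Myl4 and Phgdh with array weights (adjusted p = 0.123 and 0.141).

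The genes that lost a Flk1+ excess from 95 h to 8 d included 4 transcription regulators of the list of lateral plate mesoderm, the outer mesoderm that forms heart, limb and vessels. Tbx3, a T-box repressor, had the largest change of all 161 features, -2.58 (SE 0.20, adjusted p = 1.94e-05). It read 2.56, 2.86, 2.21 and 2.57 in Flk1+ and 0.48, 0.76, 0.38 and 0.62 in Flk1- cells at 95 h. At 8 d it read -0.39, -0.20, 0.01 and 0.11 in Flk1+ and 0.32, 0.37, 0.56 and 0.65 in Flk1- cells. The Flk1+ arrays were all above the Flk1- arrays at 95 h and all below them at 8 d. The difference of -0.59 at 8 d was not called in the pooled fit (95% interval -0.89 to -0.29, adjusted p = 0.0843) and was called when 8 d was fitted alone (adjusted p = 0.0298).

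Hand1, a helix-loop-helix factor of heart and extraembryonic mesoderm, read 2.05, 1.86, 2.39 and 2.11 in Flk1+ and 0.25, 0.82, 1.15 and 1.13 in Flk1- cells at 95 h, and 1.86, 1.70, 2.54 and 1.84 against 2.50, 2.35, 2.48 and 2.18 at 8 d. Here the Flk1+ level moved by -0.12 and the Flk1- level rose by 1.54, so that the arrays overlapped at 8 d (change -1.66, SE 0.29, adjusted p = 0.0112). Gata3, a zinc finger factor, went the other way: its Flk1+ arrays fell from between -0.03 and 0.73 to between -1.06 and -0.66, and its Flk1- arrays were between -1.47 and -0.78 at 95 h and between -1.13 and -0.78 at 8 d (change -1.38, SE 0.24, adjusted p = 0.0106). Prdm6, a smooth muscle chromatin regulator, rose in both sorts, by 1.15 in Flk1+ and 2.33 in Flk1- cells, and its sort difference went from 1.46 to 0.28 (change -1.18, adjusted p = 0.0376). The call of Hand1 ended with array weights (adjusted p = 0.066). That of Prdm6 ended with all 24 arrays (adjusted p = 0.32) and without 12 of the 16 arrays (adjusted p up to 0.0988), all but Flk1- array 1 of 8 d, Flk1+ array 2 of 95 h and Flk1- arrays 1 and 3 of 95 h.

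These 4 were the called members of 18 measured in the lateral plate mesoderm list (22.2%), all towards Flk1- cells. The list was chosen with earlier results of these data known, so this share is a description and not a test. The list's median change was -0.55, as the median sort difference went from 0.55 to 0.07. Its mean level in Flk1- cells was 0.05 at 95 h and 0.69 at 8 d, and in Flk1+ cells 0.61 and 0.72. Uncalled members on the same side included Msx2 at -1.08 (adjusted p = 0.0636), Gata4 at -0.78 (adjusted p = 0.0549), Twist1 at -0.80 (adjusted p = 0.248) and Hand2 at -0.60 (adjusted p = 0.553), and Tbx4 had an estimate of 0.99 on the other side (adjusted p = 0.515). Msx2 and Twist1 were called under the replicate block within time (adjusted p = 0.00534 and 0.0112). Hoxb1, a homeobox gene of posterior mesoderm, was the only called member of 12 measured in the primitive streak list (8.33%), with Snai1 the second under the replicate block within time. It fell by 1.57 in Flk1+ cells, from between 1.18 and 1.77 to between -0.40 and 0.06, and its sort difference went from 1.08 to -0.10 (change -1.19, SE 0.23, adjusted p = 0.0212). Hoxb1 lost the call without Flk1+ array 1 or 2 or Flk1- array 3 or 4 of 8 d, with adjusted p up to 0.0564.

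Among cardiac contractile genes, 3 of 26 measured were called (11.5%), and they did not move alike. The replicate block within time added Mybpc3. Myl7, the atrial regulatory myosin light chain and an early marker of heart muscle, read 0.37, 0.60, 0.93 and 0.47 in Flk1+ and -1.19, -0.83, -0.54 and -0.84 in Flk1- cells at 95 h. At 8 d it read -0.19, 0.40, -0.35 and -0.06 in Flk1+ and 0.83, 0.99, 0.26 and 0.53 in Flk1- cells. The sorts were fully apart at 95 h with Flk1+ higher, and at 8 d they overlapped with the Flk1- mean higher. The sort difference went from 1.44 to -0.71 (change -2.15, SE 0.27, adjusted p = 0.00091), and Myl4, above, shifted in the same direction. Tnni3, cardiac troponin I, shifted towards Flk1+ cells by 0.78 (adjusted p = 0.0376), as it fell by 0.76 in Flk1- cells, but it kept its call without only 4 of the 16 arrays, Flk1+ arrays 1 and 3 and Flk1- arrays 2 and 4 of 95 h (adjusted p up to 0.102), and its 95 h difference was not called when 95 h was fitted alone (adjusted p = 0.169). Its level stayed between -2.18 and -0.99 on all 16 arrays. The ventricular and sarcomere genes Myh7 (-0.04, adjusted p = 0.964), Actn2 (-0.20, adjusted p = 0.789) and Actc1 (0.32, adjusted p = 0.701) were not called. The list's mean level was -1.79 and -1.84 at 95 h and -1.78 and -1.59 at 8 d in Flk1+ and Flk1- cells.

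Fgf3 and Fgf10 encode fibroblast growth factors that signal between tissues in early organ formation, Fgf10 also in heart-forming mesoderm. Fgf10 read 2.06, 1.99, 2.02 and 2.07 in Flk1+ and 0.55, 0.99, 1.20 and 0.89 in Flk1- cells at 95 h, then 0.84, 0.73, 0.61 and 0.86 against 1.35, 1.42, 0.93 and 1.26 at 8 d. The arrays were apart at both times, with Flk1+ higher at 95 h and lower at 8 d. Its change was -1.61 (SE 0.18, adjusted p = 0.000411), and the difference of -0.48 at 8 d was called only when 8 d was fitted alone (adjusted p = 0.0407). Fgf3 read 1.54, 1.33, 1.54 and 1.76 against 0.54, 0.74, 0.60 and 1.03 at 95 h, and all 8 arrays of 8 d lay between 0.17 and 0.32 (change -0.87, SE 0.15, adjusted p = 0.0116). Fgf3 was not called with all 24 arrays (adjusted p = 0.321).

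The promoters of Myl7 and Fgf3 are shown because they hold motifs found in a larger share of the genes that lost a Flk1+ excess than of all genes, a count given with no test. RefSeq promoters (build GRCm38.p6), 300 bases from 250 before to 50 after a start site, were found for 7250 of 8973 genes and searched on both strands for the ETS core CCGGAAG, the GATA core AGATAAG, the TATA box TATAAA and the CArG box, the binding motif of serum response factor. The CArG box was in 3 of 28 promoters of genes that lost a Flk1+ excess (10.7%; Lef1, Myl7 and Robo1) and in 1.63% of all promoters, and AGATAAG was in 3 of 28 (10.7%; Fgf3, Klhl6 and Slc38a4) and in 2.46% of all. CCGGAAG was in 0 of the 28 and in 19.6% of all. Of 5 promoters of genes with a Flk1+ excess only at 8 d, 0 held any of the 4 motifs, which says only that these letters are not in these windows. Of the 42 promoters of genes that lost a Flk1- excess, 7 held TATAAA (16.7%), 3 CCGGAAG (7.14%), 1 AGATAAG (2.38%) and 1 a CArG box (2.38%), beside 9.1% of all promoters for TATAAA. A match is a description and not a binding site. The lines give the 250 bases before the start site, 5′ to 3′ on the gene's strand, at chr11:5898783-5899032 (minus strand) for Myl7 and chr7:144838362-144838611 (plus strand) for Fgf3. Capitals mark the CArG box in Myl7, which begins 61 bases before the start site, and the opposite-strand match to AGATAAG in Fgf3, which begins 116 bases before it.
Myl7: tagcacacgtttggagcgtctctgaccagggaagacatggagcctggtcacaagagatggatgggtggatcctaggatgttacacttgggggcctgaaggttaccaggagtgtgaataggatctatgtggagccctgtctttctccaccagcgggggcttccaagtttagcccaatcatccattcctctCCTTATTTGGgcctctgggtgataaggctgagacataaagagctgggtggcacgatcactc
Fgf3: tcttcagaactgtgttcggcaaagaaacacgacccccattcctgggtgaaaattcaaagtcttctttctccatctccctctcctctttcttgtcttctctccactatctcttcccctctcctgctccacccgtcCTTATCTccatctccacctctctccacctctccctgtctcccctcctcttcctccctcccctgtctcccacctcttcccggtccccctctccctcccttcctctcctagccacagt

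In Ackr3, Pmp22 and Nrp1 the Flk1+ excess shrank as the level rose in both sorts and by more in Flk1- cells. Ackr3, a scavenging receptor for the chemokine Cxcl12, read 0.29, 0.01, 0.86 and -0.24 in Flk1+ and -2.02, -1.49, -1.14 and -1.39 in Flk1- cells at 95 h, and 2.21, 1.86, 1.69 and 1.60 against 2.34, 2.01, 1.70 and 1.58 at 8 d. It rose in both sorts, by 1.61 in Flk1+ and 3.42 in Flk1- cells, and the sorts overlapped at 8 d (change -1.80, SE 0.34, adjusted p = 0.0175). Pmp22, a peripheral myelin and junction protein, did likewise, with rises of 1.42 and 3.15 and a sort difference that went from 1.57 to -0.16 (change -1.73, SE 0.28, adjusted p = 0.00647). Nrp1, the VEGF and semaphorin coreceptor, rose by 1.69 and 2.44, and its sort difference went from 1.04 to 0.28 (change -0.75, SE 0.16, adjusted p = 0.0374). Its sorts were still fully apart at 8 d, with 1.02 to 1.15 in Flk1+ and 0.71 to 0.90 in Flk1- cells, and that difference was called when 8 d was fitted alone (adjusted p = 0.0238). None of the 3 probes of Nrp1 was called on its own (adjusted p = 0.0754 to 0.43), with changes of -0.88, -0.81 and -0.56, and the call held without only 4 arrays, Flk1+ array 2 and Flk1- arrays 1, 2 and 3 of 95 h.

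Fbln2 and Fn1 encode the matrix proteins fibulin-2 and fibronectin. Fbln2 read -0.41, -0.60, -0.22 and -0.55 in Flk1+ and -1.45, -1.45, -1.25 and -1.57 in Flk1- cells at 95 h, and 0.03, 0.05, -0.29 and -0.47 against 0.27, 0.14, -0.23 and -0.17 at 8 d (change -1.16, SE 0.20, adjusted p = 0.0106). Fn1 went from a sort difference of 0.88 to -0.06 (change -0.95, SE 0.20, adjusted p = 0.0336), with 1 of its 3 probes called on its own (changes -1.00, -1.07 and -0.78). Both rose in Flk1- cells, by 1.43 and 1.26, and were not called to change in Flk1+ cells. Fbln2 narrowly missed with all 24 arrays (adjusted p = 0.0501). Fn1 kept its call only without Flk1+ array 3 or Flk1- array 1 of 8 d, Flk1+ array 2 or 3 of 95 h or Flk1- array 1 or 2 of 95 h (adjusted p up to 0.0889 otherwise), and was not called with quantile normalization, array weights or its most variable probe (adjusted p = 0.0923, 0.119 and 0.337).

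Col18a1, the basement membrane collagen that yields endostatin, was the matrix gene that moved the other way. Its Flk1+ level rose by 3.11, from between -2.04 and -1.18 to between 1.15 and 1.73, and its Flk1- level by 1.62, from between -0.97 and -0.27 to between 0.57 and 1.32. The sort difference went from -1.03 to 0.47 (change 1.50, SE 0.30, adjusted p = 0.0271), with changes of 1.58 and 1.42 on its 2 probes. It was not called when any 1 of 6 arrays was left out, which were Flk1+ arrays 1, 2 and 4 and Flk1- arrays 3 and 4 of 8 d and Flk1+ array 4 of 95 h (adjusted p up to 0.0703), and its 95 h difference was not called when 95 h was fitted alone (adjusted p = 0.107). Fbln2, Fn1 and Col18a1 were the called members of 55 measured in the basement membrane and matrix list (5.45%), whose median change was 0.00. Of 24 smooth muscle and fibroblast genes, Fbln2 and Fn1 were called (8.33%), and the list's mean level was alike in both sorts, -1.59 and -1.58 at 95 h and -0.41 and -0.38 at 8 d.

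The Flk1- excess that was lost included genes of the undifferentiated stem cell and epiblast state. Lefty1, a secreted Nodal inhibitor, read -0.34, 0.18, 0.13 and -0.04 in Flk1+ and 2.03, 2.48, 2.40 and 2.77 in Flk1- cells at 95 h. The 8 d arrays read -0.01, -0.23, -0.11 and -0.28 in Flk1+ and 0.31, -0.44, 0.12 and -0.30 in Flk1- cells. The sorts were fully apart at 95 h and overlapped at 8 d. Lefty1 fell by 2.50 in Flk1- cells alone, and its sort difference went from -2.44 to -0.08 (change 2.36, SE 0.25, adjusted p = 0.000274).

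Sox2, a core pluripotency and later neural factor, read -1.01, -1.18, -0.84 and -0.79 in Flk1+ and 2.42, 0.84, 1.87 and 1.70 in Flk1- cells at 95 h, and -1.26, -0.63, -0.78 and -0.90 against -0.29, -0.15, 0.52 and 0.21 at 8 d. Flk1- array 2 of 95 h was the lowest of its group. The sort difference of Sox2 went from -2.66 to -0.97 (change 1.70, SE 0.37, adjusted p = 0.0393), and the sorts stayed apart at 8 d, where the difference was called when 8 d was fitted alone (adjusted p = 0.0288). The change kept its call only without Flk1+ array 1 or Flk1- array 3 of 8 d or Flk1- array 1 or 2 of 95 h (adjusted p up to 0.0961 otherwise) and was not called with all 24 arrays or with quantile normalization (adjusted p = 0.241 and 0.169).

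Klf2, a zinc finger factor of naive stem cells that is also made by endothelium under flow, moved through its Flk1+ level. It read -1.53, -2.06, -2.10 and -2.12 in Flk1+ and 0.00, -0.33, -0.14 and -0.47 in Flk1- cells at 95 h, and 0.51, -0.44, 0.25 and 0.12 against -0.27, -0.84, -0.82 and -0.90 at 8 d. Klf2 rose by 2.06 in Flk1+ cells and moved by -0.47 in Flk1- cells (adjusted p = 0.0976). Its sort difference went from -1.71 to 0.82 (change 2.53, SE 0.28, adjusted p = 0.000362), and the estimate at 8 d, with a 95% interval from 0.40 to 1.24, was not called (adjusted p = 0.0889) and rested on arrays that overlapped.

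Of 32 measured pluripotency genes 6 were called (18.8%), 5 towards Flk1+ cells and 1, Tbx3, towards Flk1- cells. The 5 were Klf2, Lefty1, Sox2 and, named after their values were seen, Jarid2, a Polycomb cofactor (change 1.31, adjusted p = 0.00241), and Utf1, a chromatin protein of stem cells (change 1.00, adjusted p = 0.0164). Phc1 was called with the 6 under the replicate block within time. The list's median change was 0.27, from a median sort difference of -0.45 to -0.09. Nanog moved from -0.52 to -0.08 (adjusted p = 0.313), Dppa3 from -1.64 to -0.63 (adjusted p = 0.309), Klf4 from -0.43 to -1.07 (adjusted p = 0.624) and Zfp42 from -0.81 to -1.22 (adjusted p = 0.557), none of them called. The mean level of the list was 0.69 at 95 h and 0.08 at 8 d in Flk1+ cells, and 1.19 and 0.32 in Flk1- cells.

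Rpl39l, Trh and Tpd52 had a Flk1- excess at 95 h that was smaller at 8 d. Rpl39l, a paralog of ribosomal protein L39 whose near-identical relative a probe may also read, was at -1.74, -1.21, -1.35 and -1.51 in Flk1+ and 0.56, 0.48, 1.07 and 0.87 in Flk1- cells at 95 h, while all 8 arrays of 8 d lay between -1.96 and -1.47 (change 2.14, SE 0.21, adjusted p = 0.000274). Trh, the thyrotropin-releasing hormone precursor, fell by 2.79 in Flk1- and by 1.10 in Flk1+ cells. It read 0.53, 1.10, 1.16 and 0.56 in Flk1+ and 3.08, 2.77, 2.86 and 2.88 in Flk1- cells at 95 h, and -0.32, -0.15, -0.22 and -0.37 against 0.11, 0.07, 0.26 and -0.03 at 8 d (change 1.69, SE 0.19, adjusted p = 0.000477). Its arrays stayed apart at 8 d, and its difference of -0.37 was called when 8 d was fitted alone (adjusted p = 0.0298). Tpd52, a vesicle trafficking protein, fell by 1.28 in Flk1- and rose by 0.53 in Flk1+ cells, with a sort difference of -2.34 at 95 h and -0.53 at 8 d (change 1.81, SE 0.23, adjusted p = 0.000973).

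Igfbp3, a binding protein for insulin-like growth factors, and Pdk1, the kinase that closes pyruvate dehydrogenase and a hypoxia target, lost a Flk1- excess as Flk1+ cells rose. Igfbp3 read -2.82, -2.38, -2.76 and -2.80 in Flk1+ and -0.90, -0.48, -0.33 and -0.34 in Flk1- cells at 95 h, and -0.23, 0.11, -0.57 and -0.57 against -0.55, 0.15, -1.15 and -0.56 at 8 d. Its change was 2.39 (SE 0.32, adjusted p = 0.0015), and at 8 d the sorts overlapped. Pdk1 read -0.28, -0.59, -0.07 and -0.92 against 1.13, 0.48, 1.21 and 0.68 at 95 h and 1.37, 1.23, 1.30 and 1.27 against 1.17, 1.15, 0.81 and 1.02 at 8 d (change 1.59, SE 0.25, adjusted p = 0.00639). Its Flk1+ arrays were all below the Flk1- arrays at 95 h and all above them at 8 d, where the difference of 0.25 was not called (95% interval -0.13 to 0.63). Pdk1 was the only called member of 31 measured hypoxia and glycolysis genes (3.23%), with a list median of 0.23, and Adm was also called under the replicate block within time. Ddit4, a stress-induced inhibitor of mTOR, went from -1.09 to 0.08 (change 1.17, adjusted p = 0.133) and the glycolytic enzyme Pgk1 from -0.24 to 0.04 (change 0.28, adjusted p = 0.529).

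Of 23 measured epithelial junction and keratin genes, 14 were called lower in Flk1+ cells at 95 h and 10 at 8 d, beside sort differences called either way in 2.9% and 0.614% of all features. Cldn3, a tight junction claudin, was the 1 whose difference was called to change (4.35%), and with the replicate block within time Cldn6 and Dsc2 were called too. Cldn3 went from -1.40 to -0.34 (change 1.06, SE 0.23, adjusted p = 0.0429), and its call held only without Flk1+ array 1 or 3 or Flk1- array 4 of 95 h (adjusted p up to 0.103 otherwise). The sort differences at 95 h and 8 d were -1.88 and -1.09 for E-cadherin, Cdh1 (change 0.79, adjusted p = 0.297), -1.69 and -1.14 for Epcam (0.55, adjusted p = 0.196) and -1.44 and -1.26 for Cldn4 (0.18, adjusted p = 0.878). The list's median change was 0.29.

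**Figure D4:**
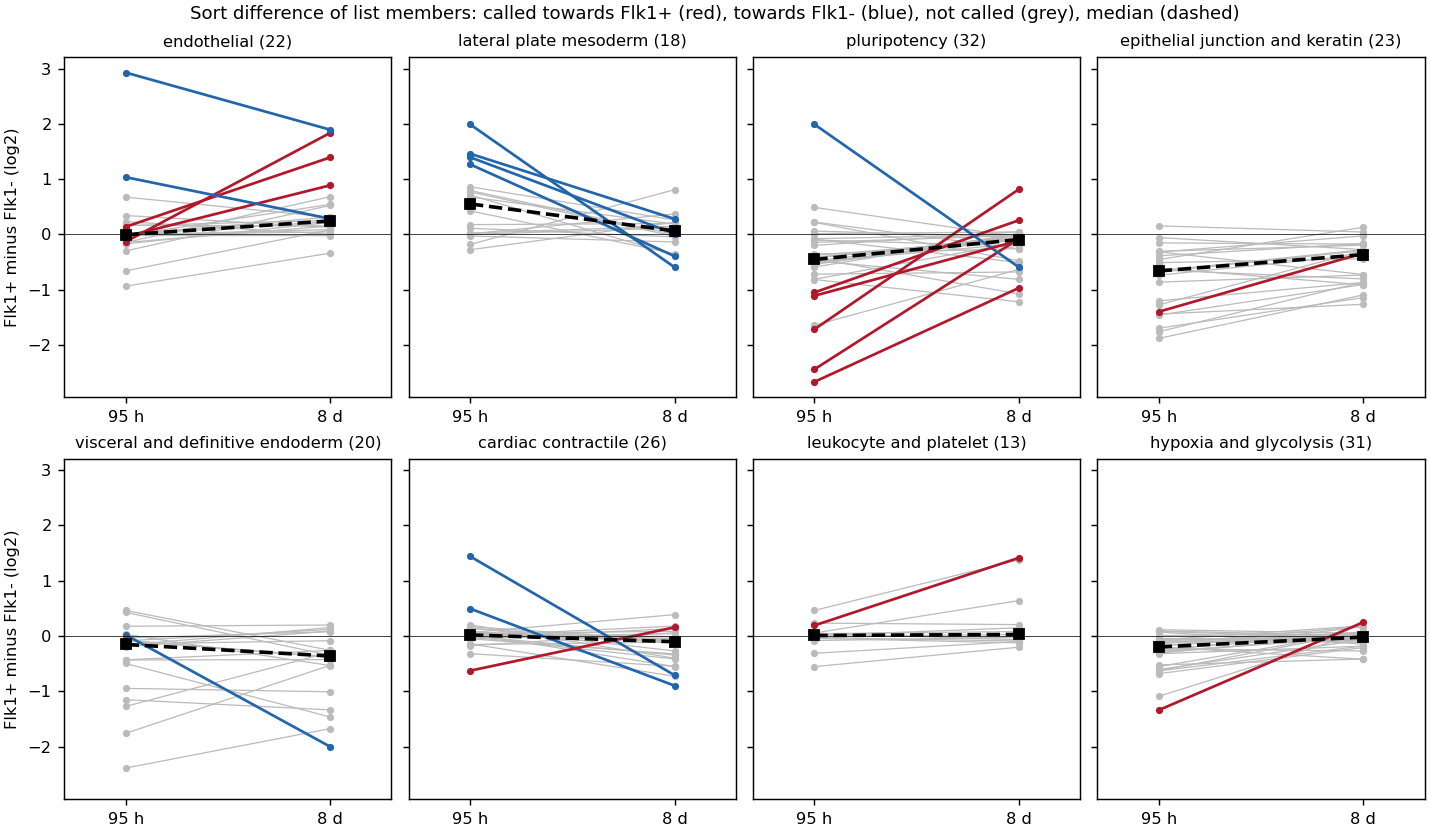
Sort difference (Flk1+ minus Flk1-, log2, y axis) at 95 h and 8 d (x axis) for each measured member of 8 gene lists, joined by a line that is red where the change was called towards Flk1+, blue where it was called towards Flk1- and grey where it was not called; the dashed line joins the medians. Lateral plate mesoderm members mostly fall towards 0 (median 0.55 to 0.07), pluripotency members mostly rise towards 0 (median -0.45 to -0.09), and most epithelial members lie below 0 at both times (median -0.66 to -0.36).

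Adgrg1 and Dkk1 were the 2 genes called at both times with opposite signs. Adgrg1, an adhesion G protein-coupled receptor also known as Gpr56 and present on blood progenitors, read -2.71, -2.14, -2.18 and -2.19 in Flk1+ and -1.11, -1.00, -1.39 and -1.03 in Flk1- cells at 95 h. Its 8 d levels were 0.20, 1.05, -0.23 and 0.23 in Flk1+ and -0.61, -0.57, -0.89 and -0.94 in Flk1- cells. The Flk1+ arrays were all below the Flk1- arrays at 95 h and all above them at 8 d. The sort difference was -1.17 at 95 h (adjusted p = 0.00524) and 1.07 at 8 d (adjusted p = 0.0352), a change of 2.23 (SE 0.30, adjusted p = 0.0015), and it came from a rise of 2.62 in Flk1+ cells.

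Dkk1, a secreted inhibitor that blocks the Wnt coreceptors Lrp5 and Lrp6, reversed in the other direction and by less. It read 1.34, 1.32, 1.49 and 1.63 in Flk1+ and 0.94, 1.25, 1.05 and 0.98 in Flk1- cells at 95 h, and 0.21, 0.41, 0.21 and 0.34 against 0.84, 0.74, 0.75 and 0.89 at 8 d. The arrays of the sorts were apart at both times, with Flk1+ higher at 95 h and lower at 8 d. The sort difference was 0.39 at 95 h (adjusted p = 0.0347) and -0.51 at 8 d (adjusted p = 0.0221), a change of -0.90 (SE 0.13, adjusted p = 0.0032), and Dkk1 fell by 1.15 in Flk1+ cells against a change of -0.25 in Flk1- cells (adjusted p = 0.063). Its 2 probes changed by -1.15 (adjusted p = 0.0402) and -0.65 (adjusted p = 0.237). Their sort differences were 0.61 and 0.17 at 95 h and -0.53 and -0.48 at 8 d. The change was not called with all 24 arrays (adjusted p = 0.147) or with the most variable probe (adjusted p = 0.241). The 95 h difference was not called when 95 h was fitted alone (adjusted p = 0.414). The 250 bases before the RefSeq start site of Dkk1, at chr19:30549497-30549746 on the minus strand (GRCm38.p6), are shown 5′ to 3′ as this is the Wnt gene that reversed, with its TATA box, 54 bases before the start site, in capitals.
Dkk1: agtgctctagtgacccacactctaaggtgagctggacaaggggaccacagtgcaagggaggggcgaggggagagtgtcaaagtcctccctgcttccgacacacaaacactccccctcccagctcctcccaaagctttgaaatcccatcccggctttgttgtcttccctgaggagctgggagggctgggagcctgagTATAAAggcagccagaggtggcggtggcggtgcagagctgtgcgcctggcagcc

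Wnt ligands bind Frizzled receptors and Lrp coreceptors, stabilise beta-catenin and so switch on targets through Tcf and Lef factors. Of 14 measured ligand and receptor genes limma called 0, with 3 at an unadjusted p under 0.05, beside 10.8% of all features. Under the replicate block within time 1, Ror1, was called (adjusted p = 0.0332). The ligand Wnt2 had sort differences of 1.86 and 1.17 (change -0.69, adjusted p = 0.537), Wnt5a 0.86 and 0.15 (change -0.71, adjusted p = 0.41), and the receptor Ror1 -0.72 and 0.20 (change 0.92, adjusted p = 0.0967). Of 23 intracellular components 1 was called (4.35%), Lef1, the nuclear partner of beta-catenin. Lef1 read 1.38, 1.59, 1.43 and 1.65 in Flk1+ and 0.29, 0.96, 0.81 and 0.44 in Flk1- cells at 95 h, and -0.05, -0.04, 0.08 and -0.02 against 0.17, 0.11, 0.50 and 0.11 at 8 d. The Flk1+ arrays lay above the Flk1- arrays at 95 h and below them at 8 d, where the difference of -0.23 was not called. Its change was -1.12 (SE 0.19, adjusted p = 0.0106), with a fall of 1.52 in Flk1+ cells, and it was not called with all 24 arrays (adjusted p = 0.281). Beta-catenin itself, Ctnnb1, had a change of 0.08 (adjusted p = 0.915).

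Of 15 measured Wnt target genes 2 were called (13.3%), Ccnd2 and Lef1, and 4 under the replicate block within time, with Myc and Nkd1, and Dkk1 was the 1 called of 5 secreted inhibitors (20%). Ccnd2 encodes cyclin D2, which drives entry into the cell cycle. It read 0.01, -0.51, -0.20 and -0.21 in Flk1+ and -0.57, -1.35, -1.10 and -1.20 in Flk1- cells at 95 h, and -0.80, -0.56, -0.76 and -0.76 against -0.16, -0.18, 0.02 and -0.07 at 8 d. The Flk1+ arrays were all above the Flk1- arrays at 95 h and all below them at 8 d. Its change was -1.45 (SE 0.20, adjusted p = 0.00206), with changes between -1.83 and -1.00 on its 4 probes. When each time was fitted alone, the difference of -0.62 at 8 d was called (adjusted p = 0.00441) and that of 0.82 at 95 h was not (adjusted p = 0.119). Ccnd2 was the 1 called of 46 cell cycle genes (2.17%, beside 121 of 8973 genes in all), with a list median of -0.07. Cdkn1c was called with it under the block. Among uncalled inhibitors, Frzb had a change of -0.70 (adjusted p = 0.217) and Dkk2 of 1.11 (adjusted p = 0.195), and among uncalled targets Nkd1 had -0.86 (adjusted p = 0.25) and Myc -0.57 (adjusted p = 0.141).

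In the BMP, Nodal and TGF-beta list, 3 of 39 measured genes were called (7.69%): Lefty1 and Eng towards Flk1+ and Bmp5 towards Flk1- cells. Bmpr1a was called with them under the replicate block within time. Bmp5, a bone morphogenetic protein, read 0.24, 0.32, 0.33 and 0.10 in Flk1+ and -0.73, -0.27, -0.65 and -0.51 in Flk1- cells at 95 h, while all 8 arrays of 8 d lay between 0.18 and 0.40. Its change was -0.73 (SE 0.14, adjusted p = 0.0172), as it rose by 0.80 in Flk1- cells alone. The call ended without Flk1- array 4 of 8 d (adjusted p = 0.0512), with all 24 arrays (adjusted p = 0.0901) and with quantile normalization (adjusted p = 0.0567). The ligand Bmp4 went from 0.77 to -0.03 (change -0.80, adjusted p = 0.0962) and the signal transducer Smad1 from 1.04 to 0.31 (change -0.73, adjusted p = 0.277). Estimates were negative for 26 of the 39 members, with a median of -0.16.

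In the Notch list Mfng was the 1 called of 21 measured (4.76%), and the median change was -0.01. The receptor Notch1 had sort differences of 0.43 and 0.87 (change 0.44, adjusted p = 0.609), the endothelial ligand Dll4 0.03 and 0.67 (change 0.64, adjusted p = 0.209) and the target Hes1 0.61 and -0.12 (change -0.73, adjusted p = 0.108). In the list of VEGF, angiopoietin, PDGF and FGF genes, 4 of 35 were called (11.4%), all towards Flk1- cells: Fgf10, Kdr (the gene of the sorted receptor), Fgf3 and Nrp1. Pdgfa was called with them under the replicate block within time. Angpt2, an endothelial ligand of the Tie receptors, had the largest estimate on the other side, from -0.43 to 0.89 (change 1.33, adjusted p = 0.129). Of 21 neural genes and of 20 immediate early and heat shock genes limma called 0, with 4 and 6 at an unadjusted p under 0.05. Over all features 10.8% had such a p. With the replicate block within time 0 and 2 were called, the latter Hsph1 and Ier3.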

How the data were processed

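RNA of sorted mouse embryoid body cells was measured on two-colour Agilent mouse development arrays, with sample RNA (Qiagen RNeasy) in Cy5 and pup reference RNA (GITC) in Cy3, both amplified, per the labels. The deposited values of 20280 probes are log ratios on a scale handled here as log2, and the log base, direction, feature extraction, background correction and normalization by the authors are not given in the sources used here. Sample over reference is the likely direction, since the sample is in Cy5 and Kdr is then higher in Flk1+ cells at both times. No array had the dyes exchanged, and the lowest correlation between any of the 24 arrays was 0.425. The platform annotation gave 1 gene for 11813 probes, several for 559 and none for 7908, and the last 2 kinds stayed unnamed. Probes of 1 gene were averaged (2180 genes) and each array's median, 0.046 to 0.127 as deposited, was set to 0.

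The 16 arrays of 95 h and 8 d were fitted with 1 mean per group (limma 3.58.1, lmFit and eBayes, R 4.3.3, data.table version 1.17.8; 12 residual and 3.43 prior degrees of freedom). Errors are standard errors (SE). Benjamini-Hochberg adjustment ran over all 17440 features, and called means an adjusted p under 0.05, whatever the fold. Each contrast of a class was called the same way. Signal over background is not in the deposited values, and the 4 arrays per group limit the precision. The script was tested on simulated data, and plots were drawn with matplotlib 3.10.9 in Python 3.11.15.

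Named genes were Kdr, in each class and direction the 6 genes with the largest change among those called whichever array was left out, and up to 4 called members of each of 23 lists (498 of 742 genes measured). Uncalled list members are named with their values. Genes, lists and tests were chosen with earlier results of these data known. Same-numbered arrays of the 2 sorts deviated together within a time. The correlation of their deviations from the group means was 0.107 to 0.417 at 95 h and 0.146 to 0.437 at 8 d, against at most 0.0638 and 0.12 for other pairs, so the replicate number pairs the sorts within a time. Across times it did not, with -0.173 to 0.000413. Alternatives were the block, all 24 arrays, scaling, array weights, the choice of probe and each array left out.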

Additional observations from a re-analysis of the deposited data

Results flagged for a closer look

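The sort difference itself differed between the 2 times, by the test of the change, in 90 features towards Flk1+ and 71 towards Flk1- cells. The change was -1.03 for Kdr, 2.23 for Adgrg1 and -0.90 for Dkk1, the last 2 with called differences of opposite sign.

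In 10 of 164 groups of 4 arrays tested for the named genes, 1 array lay far from the other 3, and chance flags about 1 group in 20. Kdr was at -1.30 on Flk1- array 1 of 95 h, with the others from -1.02 to -1.00, and at 1.89 on Flk1+ array 4 of 8 d, with the others from 1.46 to 1.51. Klf2 was at -1.53 on Flk1+ array 1 of 95 h (others -2.12 to -2.06) and at -0.27 on Flk1- array 1 of 8 d (others -0.90 to -0.82). Igfbp3 was at -2.38 on Flk1+ array 2 of 95 h (others -2.82 to -2.76), and Pmp22 at -2.03 on Flk1- array 2 of 95 h (others -1.48 to -1.38). Adgrg1 was at -2.71 on Flk1+ array 1 of 95 h (others -2.19 to -2.14). Hoxb1 was at -0.20 on Flk1- array 1 of 8 d (others -0.07 to -0.05), and Lef1 at 0.50 on Flk1- array 3 of 8 d (others 0.11 to 0.17). Ccnd2 was at -0.56 on Flk1+ array 2 of 8 d (others -0.80 to -0.76). Of these 8 genes, 7 kept their call whichever array was left out, and Hoxb1 kept it without 12 of the 16, the array named here among them.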

How the results depend on the processing

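All 161 changes kept their sign in every alternative run, and the counts moved. The 161 were picked for a change large beside its SE, and the alternatives reuse the same arrays. A kept sign was therefore largely set by that choice. Counts are given as features called, then towards Flk1+, towards Flk1-, called only at 8 d, lost at 8 d and reversed, and were 161, 90, 71, 22, 118 and 2 in the 16-array fit. They were 93, 61, 32, 12, 74 and 1 with all 24 arrays, and 314, 182, 132, 38, 214 and 5 with 21 arrays, leaving out 3 of 84 h that stand apart. They were 440, 277, 163, 88, 263 and 19 with the replicate block within time. The block ended no call of a named gene. With array weights 142 shifted towards Flk1+, 64 were called only at 8 d and 13 reversed, and with quantile normalization 6 reversed. A block across times gave 154 called. With each array left out in turn, the counts ran from 82 to 219, 38 to 128, 42 to 91, 8 to 33, 67 to 158 and 0 to 5. The lowest total, 82, was without Flk1- array 4 of 8 d and the highest, 219, without Flk1- array 2 of 95 h. The 16-array fit and the fit of 21 arrays were chosen with earlier results of these data known, in which arrays of 84 h stood apart. Another 2 alternatives were not planned and were chosen after seeing the data. Without both 95 h arrays numbered 2, 246 were called, 154 of them towards Flk1+, and 6 reversed. With each time fitted alone, 42 were called only at 8 d, 71 lost and 4 reversed. Over the alternatives of the 41 named genes, 907 values kept the call and 159 lost it; the cause was not tested. The median change of 10 of the 23 lists took both signs, among them the early hematopoietic, erythroid, leukocyte and platelet, endoderm, Notch and cell cycle lists. Of the counts of called list members under the alternatives, 129 moved by over 1.5 times and 469 did not. The median change of all features was 0.0151, and it was -0.0105 with values as deposited, -0.00211 with quantile normalization and 0.00929 with array weights. The depth of the arrays limits what a missed call shows.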

Other observations

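Genes outside the naming rule are given here as values, chosen after they were seen and with no further test. Bst2, a membrane tether for enveloped viruses, went from a sort difference of -1.82 at 95 h to 0.10 at 8 d (change 1.92), Trim12c from -1.18 to 0.19 (1.36), Parp9 from -0.73 to 0.09 (0.82), Ifitm3 from -0.60 to 0.21 (0.81), Irf1 from -0.67 to 0.01 (0.69) and Gbp3 from -0.67 to 0.02 (0.69). When 95 h was fitted alone, its difference was not called for Ifitm3 (adjusted p = 0.116) and Trim12c (adjusted p = 0.0567). The calls of the change held with each of the 16 arrays left out for Trim12c, Parp9, Irf1 and Gbp3, without 12 of the 16 for Bst2 and without 7 for Ifitm3. With all 24 arrays Irf1 and Gbp3 were not called (adjusted p = 0.123 and 0.138).

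Psat1, the second enzyme of serine synthesis, went from 0.38 to -0.73 (change -1.10) and Asns, asparagine synthetase, from 0.23 to -0.36 (change -0.59). Neither sort difference of these genes was called at either time in the fit of 16 arrays. When 8 d was fitted alone, both were called at 8 d (adjusted p = 0.0115 and 0.0123). The change held without 4 and 2 of the 16 arrays. Both lost the call with all 24 arrays (adjusted p = 0.531 and 0.906), and Asns lost it under the replicate block within time (adjusted p = 0.0535).

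Other shifts were in Zscan4f, a gene of rare two-cell-like stem cells, from -1.04 to -0.07 (change 0.97), in Wls, the carrier that Wnt ligands need for secretion, from 0.67 to -0.07 (change -0.74), and in the mesenchymal cadherin Cdh11, from 1.70 to 0.41 (change -1.29). With all 24 arrays Wls and Cdh11 were not called (adjusted p = 0.432 and 0.546), and without single arrays their calls held in 12 and 10 of 16 fits. Klhl6 went from 2.12 to 0.71 (change -1.41), and its excess in Flk1+ cells at 8 d was not called in the fit of 16 arrays but was when 8 d was fitted alone (adjusted p = 0.0104), with the sorts fully apart.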
